A study of Mus musculus with 44 samples.

Results

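The RNAs described here are those read by 94 of the 25697 probes of a mouse bead array. A probe was taken when its detection p-value was under 0.05 on all 5 input arrays of growing C2C12 cells (day 0) and at or above 0.05 on all 5 input arrays of cells differentiated for 6 days. The detection p-value compares a probe's signal with negative control beads, so these RNAs were above background before differentiation and not above it 6 days later. The probes were thus selected on input detection p-values of days 0 and 6 and on no other value. They make up 0.929% of the 10113 probes detected on every day 0 input array. C2C12 is a mouse myoblast line, labelled female. RNA was recovered with an antibody against AUF1 on 4 arrays of day 0, 3 of day 2, 3 of day 4 and 4 of day 6. RNA recovered with control IgG was measured on 4, 3, 4 and 4 arrays of the same days, and input RNA without pulldown on 5 arrays each of days 0, 3 and 6. The 5 input arrays of a day carry only 4 experiment numbers, since 2 arrays share number 1 on day 0, number 2 on day 3 and number 3 on day 6, so an SD over 5 input arrays may include 2 arrays of 1 experiment. Day 0 cells grew in medium with serum, and later days count the time in low-serum differentiation medium. All groups are of this line, with no genetic change or drug named in the labels. The labels do not say that the arrays of a group came from separate cultures, so the p-values below measure the spread between arrays, which may be technical.

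When serum is lowered, myoblasts leave the cell cycle, switch on muscle genes and fuse into multinucleated myotubes, and part of the growing cell's transcripts is no longer made. AUF1, the product of Hnrnpd, attaches to AU-rich stretches that many mRNAs carry, mostly in untranslated regions, and can hasten or slow the decay of an mRNA or alter its translation. In an RNA immunoprecipitation, cell lysate is incubated with antibody-coated beads, and RNA that stays on control IgG beads measures recovery that does not need the antibody's target. The pulldowns were made to find mRNAs bound by AUF1. None of the 25697 identifiers (0) matched the gene tables used here, so probe identifiers stand in for genes, and neither the function of these RNAs nor the presence of myoblast markers among them was examined.

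In input RNA the 94 probes were modest in signal before differentiation and at the floor of the array after it. These levels chose the probes and are given as a description without a test. The median over the 94 probes of the mean signal was 79.7 raw intensity units on day 0, 55.8 on day 3 and 55.0 on day 6. The median raw signal of all 10113 probes detected on every day 0 input array was 220 on day 0, and the highest mean of any of the 94 was 223. After background correction and normalization the median of the 94 day 0 means was 5.34 (log2; range 4.83 to 7.34). The day 3 median was 4.47 (range 4.28 to 4.86) and the day 6 median 4.43 (range 4.26 to 4.63). The day 6 values and most of the day 3 values were not above background, so no size of change is given. An RNA that is not detected may still be present at a level this array cannot read, so "switched off" means only that the signal was not above background. In these bulk samples, fewer cells that hold an RNA and less of it per cell cannot be told apart.

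The 3 probes with the highest mean input signal on day 0 show the pattern. ILMN_2660233 read 4.52, 4.53, 4.60, 4.53 and 4.59 (log2) on the day 6 input arrays, against 7.24, 7.87, 6.32, 7.42 and 7.86 on the day 0 input arrays. ILMN_2919999 read 4.58, 4.58, 4.49, 4.53 and 4.38 on day 6, against 7.31, 7.82, 7.53, 7.45 and 6.36 on day 0. ILMN_2723965 read 4.55, 4.30, 4.56, 4.32 and 4.41 on day 6, against 7.67, 7.82, 5.77, 7.79 and 5.95 on day 0. In each case all 5 day 6 arrays were below all 5 day 0 arrays, which the choice of probes made likely beforehand. The day 0 arrays spread widely among themselves. The other 9 of the 12 probes with the highest day 0 input mean were ILMN_2726931, ILMN_2938820, ILMN_1236889, ILMN_2687169, ILMN_2721929, ILMN_2937596, ILMN_1229994, ILMN_2909597 and ILMN_3097131. Their means ran from 6.93 for ILMN_2726931 to 6.12 for ILMN_3097131. Signals of different probes also depend on how well each probe binds, so this order is not an order of RNA amount. Over the 94 probes the SD between day 0 input arrays had a median of 0.27.

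By day 3 most of these RNAs were already undetected on the input arrays. Day 3 input was not used by the rule. Of the 94 probes, 55 (58.5%) were detected on none of the 5 day 3 input arrays, 21 on 1, 8 on 2, 9 on 3, 1 on 4 and 0 on all 5. Single day 3 arrays detected 7, 12, 16, 16 and 17 of them. Of the 9276 probes detected on all day 0 and all day 6 input arrays, 98.3% were detected on every day 3 array. No day 2 or day 4 input is among the groups, so the order in which detection was lost within the first 3 days was not measured.

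The detection limit is not a gap in the data. Another 76 probes detected on all day 0 arrays were detected on a single day 6 array, 130 on 2 of them, 185 on 3 and 352 on 4. Just inside the limit on day 6 were ILMN_2932164 and ILMN_3097131, whose lowest day 6 detection p-value was 0.0501 each. Just outside were ILMN_2694022 (0.0476) and ILMN_2441895 (0.0464). On day 0 the highest p-value among the 94 was 0.0464, for ILMN_2539564 and ILMN_2692927, while ILMN_1215134 and ILMN_2718359 missed the limit with 0.0514 on 1 array. Their mean day 0 levels were 5.16 and 5.07 inside, against 4.98 and 4.85 outside.

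The pulldowns did still hold many of these RNAs on day 6. With AUF1, 72 of the 94 (76.6%) were detected on at least 1 of 4 arrays and 11 (11.7%) on every array. With IgG, 75 (79.8%) were detected on at least 1 of 4 arrays and 19 (20.2%) on every array. Among the 9710 probes detected on no input array of any day, the shares on at least 1 day 6 array were 5.92% for AUF1 and 5.98% for IgG, and the counts on every array were 2 and 14. Among the 9276 probes kept in input, 97.1% were detected on at least 1 AUF1 day 6 array and 72.8% on every one. With IgG these shares were 98.0% and 76.4%. The counts on every array depend on the arrays that detected few of the 94. Without the arrays of experiment 3 they were 18 for AUF1 and 37 for IgG. With AUF1, experiment 2 was low as well, with 22 of the 94 detected and 19 in experiment 3. Detection on day 6 pulldown arrays was therefore between that of the never-detected and the kept probes, in the control as well as in the AUF1 pulldown. Against all probes, the share of the 94 was higher on at least 1 array and lower on every array.

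Over time the number of these probes detected per array did not fall steadily in the pulldowns. AUF1 arrays detected 51, 14, 55 and 57 of the 94 on day 0. The day 2 arrays detected 10, 8 and 26, those of day 4 detected 15, 4 and 35, and those of day 6 detected 60, 22, 19 and 54. IgG arrays detected 71, 24, 69 and 71 on day 0. The day 2 arrays detected 43, 29 and 40, those of day 4 detected 53, 6, 49 and 55, and those of day 6 detected 57, 56, 29 and 54. All AUF1 arrays of day 2 stood below the IgG arrays of that day, whereas the groups overlapped on the other days. The share of all probes detected also stood apart on day 2, at 24.4% to 35.5% with AUF1 and 39.3% to 42.8% with IgG. In arrays of the same day and experiment number, AUF1 detected fewer of the 94 than IgG in 12 of 14 pairs, the same number in 1 and more in 1. The share of all probes was lower with AUF1 in every pair, so this order is not particular to the 94. On days 0 and 6 the deviations of these arrays from their group means correlated above the limit of 0.1 in every pair, so they count as pairs. On days 2 and 4 the lowest correlations, 0.098 and -0.12, were under it, so pairing on those days is not settled.

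The count per array moved with the share of all probes that an array detected, which ran from 24.4% to 46.8% on the pulldown arrays and from 44.7% to 48.7% on input. Across the 29 pulldown arrays the share of all probes and the share of the 94 had a Pearson correlation of 0.92 (Spearman 0.89), given as a description because both shares come from the same arrays and the groups are mixed. On 5 arrays, called dim here, under 30% of all probes were detected: AUF1 day 0 experiment 2, AUF1 day 2 experiments 1 and 2, AUF1 day 4 experiment 3 and IgG day 4 experiment 2. These 5 detected 4 to 14 of the 94, the other 24 detected 15 to 71. The lowest normalized value of a detected probe was 5.62 to 6.20 (log2) on the 5 and 4.61 to 5.28 on the other 24, so a value near 6 can be undetected on a dim array. Pulldown arrays carry array numbers 1 to 32 and input arrays 33 to 47, so that pulldown and array series cannot be told apart.

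All 8 day 6 pulldown arrays, 4 with AUF1 and 4 with IgG, detected 8 of the 94 probes (8.51%). They were ILMN_3097131, ILMN_2920027, ILMN_2634689, ILMN_1212939, ILMN_2693785, ILMN_2628668, ILMN_1243635 and ILMN_1241754. Across these 8 the mean day 6 level was 5.35 to 6.06 (log2) with AUF1 and 5.29 to 6.36 with IgG. ILMN_3097131 had 6.52, 6.73, 5.62 and 5.38 on the AUF1 day 6 arrays and 6.80, 6.21, 6.51 and 5.94 on the IgG day 6 arrays. Its day 6 input arrays read 4.63, 4.66, 4.62, 4.37 and 4.44, none of them detected. ILMN_2920027 had 5.55, 5.70, 7.07 and 5.41 with AUF1 and 5.99, 5.90, 7.09 and 5.55 with IgG on day 6. Its highest value was in experiment 3 with either antibody. Of the 9710 probes never detected in input, 2 were detected on all 8 arrays, while the share was 70.6% among the probes kept in input and 27.9% over all probes. At the other end, 12 of the 94 (12.8%) were on none of the 8 day 6 pulldown arrays, against 43.6% of all probes.

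Levels of the 94 in pulldown and input were also set on one scale, by normalizing all 44 arrays together. The rule fixed input as not above background on day 6 and above it on day 0, so the choice of probes bears on the direction of any difference from input, and none is read from these values. The median level on day 6 was 4.70 (log2) with AUF1 and 4.80 with IgG, against 4.43 in input. On day 0 it was 5.00 with AUF1 and 4.99 with IgG, against 5.12 in input. Every AUF1 day 6 array was above every input day 6 array for 22 of the 94 probes, against 12.4% of all probes, and every IgG day 6 array for 34, against 12.2%. All 8 probes of the previous paragraph were among both, which their choice by detection on day 6 made likely beforehand. On day 0 the counts were 10 with AUF1, against 10.3% of all probes, and 11 with IgG, against 7.1%. Pulldown and input differ in array series and in the RNA each array received, and no amount of RNA per cell can be read from either.

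In all 29 pulldown arrays a probe was detected on 0 to 26 arrays, with a median of 11. Detection on the 8 day 6 arrays was on fewer arrays than on the 8 day 0 arrays for 49 probes, on more for 21 and on as many for 24. Over all probes the split ran the other way, with 3100 on fewer, 4924 on more and 17673 on as many. No pulldown array of any day detected 5 of the probes, ILMN_2723965, ILMN_2752010, ILMN_3090530, ILMN_2640330 and ILMN_2681945. ILMN_2723965 read 4.55, 4.45, 4.47 and 4.36 on the AUF1 day 0 arrays and 4.38, 4.80, 4.36 and 4.46 on the IgG day 0 arrays, against a mean of 7.001 in day 0 input, which was normalized separately. This probe was thus at the floor in the pulldowns of the day on which input showed it. ILMN_2938820 differed between days with AUF1: it read 5.48, 5.29, 4.28 and 4.84 on day 6, detected on 3 of 4 arrays, and 4.35, 4.28, 4.50 and 4.67 on day 0, all undetected. With IgG it was detected on 3 of 4 arrays of both days, at 6.27, 6.48, 4.74 and 4.77 on day 6 and 6.23, 4.36, 5.53 and 5.43 on day 0. The AUF1 difference between the days was not called. Across the 94 probes, the day 0 level in input had a correlation of 0.11 with that in the AUF1 pulldown and 0.18 with that in the IgG pulldown. The AUF1 and IgG levels correlated at 0.77 on day 0 and 0.86 on day 6. These correlations are across probes, which are not independent replicates, and the probes' own binding is shared by all groups.

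Many of the early-lost RNAs were detected on at least 1 day 6 pulldown array as well. Of the 55 probes detected on no day 3 input array, 42 were detected on at least 1 AUF1 day 6 array and 48 on at least 1 IgG day 6 array, with 4 and 14 on every array. Of the other 39, 30 were on at least 1 AUF1 array and 27 on at least 1 IgG array, with 7 and 5 on every array. No test was made of this split.

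The change of each probe within the pulldowns was tested with limma across all 25697 probes, which the rule did not use. In the AUF1 pulldown on day 6 against day 0, 6 of the 94 (6.38%) were called lower at an adjusted p-value under 0.05, against 1.49% of all probes, and 0 were called higher (1.91% of all probes). Among the 9276 probes kept in input 3.64% were called lower. The median change of the 94 was -0.18 (log2) and that of all probes was 0.00, with 71 of the 94 below 0, against 50.5% of all probes. At an unadjusted p-value under 0.05 there were 19 in either direction, 18 of them lower, against 11.8% of all probes. For 6 of the 94 every day 6 array was below every day 0 array, against 4.12% of all probes. The count of 6 rests on single arrays: it was 2 without AUF1 day 0 experiment 1, 1 without AUF1 day 0 experiment 3, and 3 without any one of the 4 AUF1 day 6 arrays. Median scaling in place of quantile normalization gave 1 (0.0584% of all probes lower). Other alternatives raised the count: it was 10 with the experiment number as a block (2.88% of all probes), 14 with array weights (3.59%) and 12 without the dim arrays (1.94%).

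The 6 were ILMN_2814484, ILMN_2687169, ILMN_2628668, ILMN_2919999, ILMN_2608703 and ILMN_2704972. ILMN_2814484 read 4.79, 4.85, 5.64 and 4.77 on the AUF1 day 6 arrays and 6.53, 7.38, 7.25 and 5.98 on the AUF1 day 0 arrays. The groups did not overlap, and the fitted change was -1.77 ± 0.41 (log2, SE; limma adjusted p = 0.0125). The highest day 0 value, 7.38, was on the dim second array, which had the lowest raw day 0 signal, 86.3. The input of this probe was at 5.05 ± 0.24 (SD, n = 5) on day 0, in a separate normalization. ILMN_2687169 read 4.43, 4.39, 4.34 and 4.45 on AUF1 day 6, none detected, and 5.80, 4.36, 6.64 and 6.47 on AUF1 day 0, where the second array was undetected and the groups therefore overlapped. It was at least 1.91-fold lower on day 6 (limma adjusted p = 0.0286), a bound because no day 6 array detected it. ILMN_2628668 read 5.24, 5.41, 6.65 and 5.04 on AUF1 day 6 and 6.90, 7.04, 7.13 and 6.88 on AUF1 day 0. It fell by 1.41 (limma adjusted p = 0.0421) with no overlap, and it was still detected on every array. ILMN_2919999 had 5.26, 4.59, 4.42 and 4.93 on day 6 and 6.16, 5.07, 6.22 and 6.71 on day 0, with overlap at the dim second day 0 array, and fell by 1.24 (limma adjusted p = 0.0200).

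ILMN_2608703 was undetected on all AUF1 day 6 arrays, at 4.35, 4.33, 4.36 and 4.49, against 5.42, 4.58, 5.62 and 5.50 on AUF1 day 0. It was at least 1.32-fold lower on day 6 (limma adjusted p = 0.00148). ILMN_2704972 was called lower (limma adjusted p = 0.0351), but it was detected on 1 AUF1 day 0 array and on none of day 6, so no fold is given. The call of ILMN_2608703 was lost under 1 of 15 alternatives, median scaling. That of ILMN_2814484 was lost under 3, which were median scaling and leaving out AUF1 day 0 experiment 2 or 3. That of ILMN_2919999 was lost under 6, among them leaving out AUF1 day 0 experiment 1, 3 or 4 or AUF1 day 6 experiment 2 or 3. The calls of ILMN_2628668, ILMN_2687169 and ILMN_2704972 were lost under 10, 9 and 9 of the 15, when nearly any single AUF1 array was left out. The arrays that could be left out without losing them were day 6 experiment 3 for ILMN_2628668, day 0 experiment 2 for ILMN_2687169, and experiment 2 of either day for ILMN_2704972.

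In the IgG pulldown, 2 of the 94 were called lower on day 6 against day 0, against 0.152% of all probes, and 0 higher (0.965%). The median change was -0.17, with 74 of the 94 below 0, against 51.9% of all probes, and 17 had an unadjusted p-value under 0.05, all of them lower, against 6.82% of all probes in either direction. For 7 of the 94 every day 6 array was below every day 0 array, against 1.63% of all probes. ILMN_2721413 read 4.57, 4.36, 4.34 and 4.49 on IgG day 6, none detected, and 4.82, 5.25, 4.83 and 5.21 on IgG day 0. Its groups did not overlap and it was at least 1.23-fold lower (limma adjusted p = 0.00806). With AUF1 the same probe was undetected on day 0, so its fall was not measurable there. ILMN_2756613 was at least 1.02-fold lower (limma adjusted p = 0.0145), with means of 4.40 on day 6 and 4.76 on day 0. The count of 2 was 1 without IgG day 6 experiment 1, IgG day 0 experiment 1 or IgG day 0 experiment 4, and 5 without IgG day 0 experiment 2. It was 0 without background correction, the only alternative under which ILMN_2721413 lost its call. It was 4 with the block (0.576% of all probes lower), 11 with array weights (0.86%) and 5 without the dim arrays (0.276%).

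No probe was called on day 6 with both antibodies, but the difference between the changes was not called for any either. The test of the day 6 minus day 0 change in AUF1 against that in IgG called 0 of the 94 and 0% of all probes with limma, also with the experiment number as a block, and 3 of the 94 had an unadjusted p-value under 0.05, against 2.66% of all probes. Of the 6 probes called with AUF1, the IgG changes were -0.85 for ILMN_2814484, -0.72 for ILMN_2687169, -0.81 for ILMN_2628668, -1.17 for ILMN_2919999 and -0.59 for ILMN_2608703, without a call. These were detected on 3, 2, 4, 3 and 1 of the 4 IgG day 6 arrays, in that order. ILMN_2704972 was detected on no IgG day 6 array, so no IgG change is given for it.

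The median level of the 94 in the AUF1 pulldown was 4.91, 4.60, 4.57 and 4.65 (log2) on days 0, 2, 4 and 6, and in the IgG pulldown 4.89, 4.65, 4.65 and 4.73. On days 2 and 4 the calls were as few. With AUF1, 3 of the 94 were lower on day 2 than on day 0 (0.354% of all probes) and 1 on day 4 (0.183%). With IgG, 2 were lower on day 2 (0.0778%) and 5 on day 4 (0.163%), and 0 were higher in any of these 4 comparisons. Of all probes, 0.63% and 0.646% were higher with AUF1 and 0.276% and 0.673% with IgG, on days 2 and 4 in turn. The medians were -0.26 and -0.25 for AUF1 and -0.17 and -0.24 for IgG, on days 2 and 4 in turn, with all-probe medians of 0.01, 0.00, -0.01 and 0.00. With AUF1, unadjusted p-values under 0.05 in either direction were found for 24 of the 94 on day 2 (22 lower), against 13.8% of all probes, and for 24 on day 4 (23 lower), against 8.68%. With IgG there were 20 on day 2, against 5.17%, and 22 on day 4, against 6.99%, all lower. Every array of the later day was below every day 0 array for 8 and 10 of the 94 with AUF1, against 4.03% and 3.4% of all probes, and for 10 and 14 with IgG, against 3.03% and 1.8%. The day 2 and day 4 comparisons share the day 0 arrays with each other and with day 6, so they are not independent of one another. Together the 6 comparisons with day 0 called 9 probes lower, 4 with AUF1 alone, 2 with IgG alone and 3 with both.

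ILMN_3140871 is one of the 3 probes called with both antibodies. It was at least 1.21-fold lower with AUF1 on day 2 (limma adjusted p = 0.0173), where it read 4.46, 4.44 and 4.64 and was undetected, against 5.90 ± 0.46 (SD, n = 4) on day 0. With IgG on day 4 it was at 4.80 ± 0.37 (SD, n = 4), against 6.26 ± 0.31 on day 0, a change of -1.47 ± 0.27 (SE; limma adjusted p = 0.00366). By day 6 it was detected on 3 of 4 AUF1 arrays and 4 of 4 IgG arrays, at means of 5.25 and 5.30. The other two probes called with both were ILMN_2608703 and ILMN_2919999.

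These small counts rest on single arrays and on the fit. With array weights they were 6 and 15 for AUF1 on days 2 and 4 (0.514% and 1.21% of all probes) and 8 and 8 for IgG (0.716% and 0.879%). With the experiment number as a block, although it missed the limit for pairs between AUF1 days, the AUF1 counts were 6 and 8 (1.08% and 0.673%). The AUF1 day 2 count of 3 was 8 without AUF1 day 0 experiment 2, 1 without AUF1 day 0 experiment 3 or 4 or AUF1 day 2 experiment 1, 0 without AUF1 day 2 experiment 2 and 5 without AUF1 day 2 experiment 4. The AUF1 day 4 count of 1 was 9 without AUF1 day 0 experiment 2 and 0 without AUF1 day 0 experiment 3 or 4 or AUF1 day 4 experiment 1 or 3. The IgG day 2 count of 2 was 0 without IgG day 2 experiment 1 or 2 or IgG day 0 experiment 4, and 1 without IgG day 0 experiment 1 or 3. The IgG day 4 count of 5 was 3 without IgG day 0 experiment 3 or IgG day 4 experiment 1, 2 or 4, and 1 without IgG day 0 experiment 4 or IgG day 4 experiment 3.

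The comparison of AUF1 with IgG on the same day asks which RNAs the antibody recovered beyond the control. On day 6, when these RNAs were undetected in input, 0 of the 94 were called by limma, and 0% of all probes, with or without the experiment number as a block. At an unadjusted p-value under 0.05 there were 2 of the 94, against 1.88% of all probes. On day 0, 0 of the 94 were called, against 0.0856% of all probes, and 12 had an unadjusted p-value under 0.05, against 8.98%. With the block, which pairs the day 0 arrays, 6 were called, 3 higher and 3 lower, against 5.35% of all probes. On day 2, 1 probe was called (0.926% of all probes), ILMN_2662779. It read 5.83, 5.49 and 4.99 on the AUF1 arrays, of which 1 was detected, and 4.55, 4.83 and 4.57 on the IgG arrays, of which 1 was detected. The difference of 0.78 ± 0.18 (SE; limma adjusted p = 0.0394) includes 2 dim AUF1 arrays, and the call was lost without the dim arrays and under 6 other alternatives of 13. The count of 1 was 0 without AUF1 day 2 experiment 1 or 2 or IgG day 2 experiment 1 or 2, and 3 without AUF1 day 2 experiment 4. On day 4, 1 probe was called (0.35% of all probes), ILMN_1231514.

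ILMN_1231514 was held by IgG beads through differentiation and less with AUF1. On day 4 it read 4.76, 4.38 and 4.76 on the AUF1 arrays, none detected, and 7.89, 7.98, 7.004 and 6.64 on the IgG arrays, all detected. It was at least 3.88-fold lower with AUF1 (limma adjusted p = 0.0202). The call was lost without AUF1 day 4 experiment 3, without IgG day 4 experiment 1 and without the dim arrays, and the count was 2 without AUF1 day 4 experiment 4. On the other days it was detected with both antibodies: with AUF1 the day 0, day 2 and day 6 means were 6.14, 6.43 and 5.34, and with IgG they were 7.22, 7.08 and 6.33. In input it was at 5.33 ± 0.23 (SD, n = 5) on day 0 and undetected on all 10 arrays of days 3 and 6.

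Averaged over the 4 days, 10 of the 94 (10.6%) differed between AUF1 and IgG, against 9.89% of all probes, 3 higher and 7 lower with AUF1. A second fit used day and experiment number together as a block. It treats AUF1 and IgG arrays as pairs on all 4 days, though days 2 and 4 missed the limit of 0.1 for pairs. With this block 27 were called, against 26.2% of all probes. Both shares are near the background. The median difference was -0.06 for the 94 and 0.02 for all probes, with 54 of the 94 below 0. The count was 6 without IgG day 2 experiment 1 or IgG day 0 experiment 1 and 16 without IgG day 4 experiment 2. Called higher with AUF1 were ILMN_2591342, ILMN_2852533 and ILMN_2662779, with differences of 1.24 ± 0.22, 0.43 ± 0.11 and 0.29 ± 0.08 (log2, SE; limma adjusted p = 0.00135, 0.0162 and 0.0280). Lowest with AUF1 were ILMN_1231514 (-1.37 ± 0.24, limma adjusted p = 0.0013), ILMN_3097131 (-1.06 ± 0.26, 0.0112), ILMN_3157773 (-0.76 ± 0.23, 0.0415) and ILMN_2909597 (-0.62 ± 0.12, 0.0027). The calls of ILMN_2591342, ILMN_1231514, ILMN_3097131, ILMN_2909597 and ILMN_1220545 were kept under all 36 alternatives run. That of ILMN_3157773 was lost under 19 of them and that of ILMN_2662779 under 6.

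ILMN_2591342 had the highest AUF1 over IgG difference among the 94. With AUF1 it read 6.06, 7.38, 6.64 and 5.39 on day 0, 6.80, 7.03 and 5.87 on day 2, and 6.07, 7.50 and 5.67 on day 4, detected on all 10 arrays. On day 6 it was at 4.57, 5.35, 5.81 and 4.79, detected on 3 of 4. With IgG it read 4.64, 4.44, 5.31 and 4.91 on day 0, 4.80, 5.00 and 4.73 on day 2, 4.65, 5.61, 4.79 and 4.64 on day 4 and 4.68, 4.65, 5.79 and 4.57 on day 6. After normalization the AUF1 arrays lay above all IgG arrays of their day on days 0, 2 and 4, whereas the groups overlapped on day 6. The AUF1 values 7.38, 6.80, 7.03 and 7.50 were on the dim AUF1 arrays. In raw signal AUF1 and IgG overlapped on days 0, 2 and 4 too. On day 0 the raw signals were 82.4 to 123.2 with AUF1 and 60.1 to 92.1 with IgG. The highest IgG values, 5.61 and 5.79, were on IgG day 4 experiment 2, which was dim and undetected for this probe, and on IgG day 6 experiment 3. In input it was near the floor on every day, at 4.83 ± 0.06 (SD, n = 5) on day 0.

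ILMN_2909597 showed the opposite order. The AUF1 arrays read 4.88, 4.32, 4.45 and 4.84 on day 6, detected on 2 of 4, and 4.49, 4.50, 5.03 and 4.40 on day 0, detected on 1 of 4. The IgG arrays read 5.02, 5.05, 5.32 and 5.07 on day 6 and 5.06, 5.96, 5.10 and 4.86 on day 0, all detected. Every AUF1 day 6 array was below every IgG day 6 array, while on day 0 1 AUF1 array was above 1 IgG array. ILMN_3097131 was lower with AUF1 but present in both, with means of 6.18, 5.53, 5.38 and 6.06 (log2) on days 0, 2, 4 and 6 with AUF1 and 7.30, 7.14, 6.56 and 6.36 with IgG. Its lowest AUF1 values, 4.36 and 4.42, were undetected ones on 2 dim arrays of days 2 and 4.

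The reverse set gives a measure of how detection in the pulldowns follows input. The 184 probes detected on none of the day 0 and all of the day 6 input arrays were detected on at least 1 day 6 array for 59.2% with AUF1 and 70.7% with IgG. On day 0, when these RNAs were undetected in input, the shares were 16.8% with AUF1 and 28.3% with IgG. The 94 switched-off probes, on the day when they were undetected in input, had shares of 76.6% with AUF1 and 79.8% with IgG. On the day they were detected in input, day 0, the shares were 72.3% with AUF1 and 90.4% with IgG. Over all probes the shares on day 6 were 51.2% with AUF1 and 52.7% with IgG, and on day 0 46.6% and 52.4%. These shares are over probes and were not tested, since neither set's probes are replicates and more probes were detected in total on day 6 with AUF1, with 33.3% to 45.5% of all probes per array on day 6 and 28.6% to 40.9% on day 0.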

How the data were processed

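The table the authors deposited covers 44 Illumina arrays and 25697 probes. Each array has a column of signal intensity, not normalized per the file headers, followed by its detection p-value column. The submitters' processing notes name GenomeStudio 1.6.0; the sources used here do not say whether background was subtracted. Column names give group, experiment and array numbers. Experiment numbers do not follow the titles' replicate numbers, so columns were assigned to groups. Input titles say DNA, but descriptions and molecule say RNA. No 2 signal columns held identical values (0 pairs).

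Normalization used the neqc function of limma 3.58.1 (R 4.3.3): normal-exponential background correction using the detection p-values, an offset of 16, quantile normalization and log2. This was done for the 29 pulldown arrays, for the 15 input arrays and, for the pulldown levels set against input, for all 44. Quantile normalization removes differences in total RNA. A model with a mean per pulldown group was fitted to all probes without a detection filter (lmFit, contrasts, eBayes), with Benjamini-Hochberg adjustment over all 25697 and calls at adjusted p under 0.05. If none of the dimmer group's arrays detected a probe, its fold is given as "at least": each such array was set to the lowest signal of any detected probe there, or to the probe's own signal if higher, before averaging. The test was tried on simulated data.

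Probes, lists and tests were chosen with earlier results of these data known. Named probes are the 12 with the highest day 0 input mean, the called ones (for the mean over 4 days up to 4 each way), the 8 on all day 6 pulldown arrays and those nearest the limit; ILMN_2938820 and the 5 probes on no pulldown array were chosen after their values were seen. As no probe could be named by gene, the planned gene lists, cell type markers and promoter motifs are not analysed here, and no sequence is shown. Whether experiment numbers pair arrays was checked by correlating, across probes, deviations from the group mean. AUF1 with IgG gave 0.25 to 0.75 on day 0 and 0.15 to 0.82 on day 6, all above 0.1, so those arrays count as pairs; on days 2 and 4 the lowest correlations were 0.098 and -0.12, and they do not. Between days, the numbers paired IgG arrays of days 2 and 4 with day 0 (0.51 to 0.71 and 0.48 to 0.71) and no other group. The number of arrays limits the precision.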

Additional observations from a re-analysis of the deposited data

Results flagged for a closer look

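Of 246 tests of the gap between an extreme array and its nearest neighbour, for the number of the 94 probes detected and for the named probes within groups of 4 or 5 arrays, 18 exceeded Dixon's limit; chance gives about 1 in 20. Low for the number detected were 4 single arrays of experiments 2 and 3, not all arrays of those experiments. The counts were 14 on AUF1 day 0 experiment 2 (51 to 57 on the others), 24 on IgG day 0 experiment 2 (69 to 71), 6 on IgG day 4 experiment 2 (49 to 55) and 29 on IgG day 6 experiment 3 (54 to 57). The share of all probes detected was also the lowest of its group on each of these 4 arrays; its part in the counts was not tested.

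Among AUF1 arrays, ILMN_2937596 was low on day 0 experiment 2 at 4.47 (log2; others 5.58 to 5.80), and ILMN_2909597 was high on day 0 experiment 3 at 5.03 (others 4.40 to 4.50). On AUF1 day 6, ILMN_2814484 stood at 5.64 in experiment 3 (others 4.77 to 4.85) and ILMN_2608703 at 4.49 in experiment 4 (others 4.33 to 4.36), where it was undetected.

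Among IgG arrays, day 4 experiment 2 was high for ILMN_1236889 at 6.44 (others 4.64 to 4.86) and for ILMN_2591342 at 5.61 (others 4.64 to 4.79). This array was dim and ILMN_2591342 was undetected on it. Its raw signals for these probes, 64 and 60.9, were the lowest of the group, so only the normalized values were high. IgG day 6 experiment 3 was high for ILMN_2591342 at 5.79 (others 4.57 to 4.68) and for ILMN_2909597 at 5.32 (others 5.02 to 5.07). The raw signal of ILMN_2909597 there, 70.5, was the lowest of its group. IgG day 6 experiment 4 was low for ILMN_2693785 at 5.04 (others 5.78 to 5.89) and for ILMN_1231514 at 5.35 (others 6.60 to 6.76), and IgG day 6 experiment 1 was high for ILMN_2919999 at 5.26 (others 4.95 to 5.00).

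In input, ILMN_2726931 read 6.29 on 1 day 0 array (others 6.98 to 7.23), ILMN_3140871 read 5.22 on another (others 5.47 to 5.52), and ILMN_2721413 read 4.90 on 1 day 3 array (others 4.28 to 4.39).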

How the results depend on the processing

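Of 890 recomputed values 648 kept their call or stayed within 1.5 times; 86 of 224 counts moved more, 156 of 666 single-probe calls were lost and 0 reversed, and the cause was not tested. The rule gave 111 probes at a detection limit of 0.01 and 94 to 129 when an input array was left out. At that limit 4 in place of 11 of the 94 were on every AUF1 day 6 array and 9 in place of 19 on every IgG one; leaving out an array gave 12 to 18 and 20 to 37. In the comparisons with day 0, the calls among the 94 for AUF1 on days 2, 4 and 6 (3, 1 and 6) were 0, 0 and 1 with median scaling, 6, 8 and 10 with the replicate block, 6, 15 and 14 with array weights, 1, 4 and 12 without the 5 dim arrays, and 0 to 8, 0 to 9 and 1 to 8 with an array left out. For IgG (2, 5 and 2) they were 0 and 2 on days 2 and 4 with median scaling, 1, 3 and 0 without background correction, 1 and 3 on days 2 and 4 with a detection filter, 4 on day 6 with the replicate block, 8, 8 and 11 with array weights, 3 and 5 on days 4 and 6 without the dim arrays, and 0 to 2, 1 to 7 and 1 to 5 with an array left out. Of AUF1 against IgG, day 0 (0) gave 1 with all 44 arrays normalized together, 6 with the block (5.35% of all probes) and 2 with weights (1.97%). Day 2 (1) gave 0 with median scaling, without background correction or without the dim arrays, 10 with the block (12.3% of all probes), 2 with weights (2.92%) and 0 to 3 with an array left out. Day 4 (1) gave 8 with the block (11.3%), 7 with weights (7.86%), 0 without the dim arrays and 0 to 2 with an array left out. The mean over 4 days (10) gave 21 with median scaling (35.4%), 27 with the block (26.2%), 26 with weights (21.99%) and 6 to 16 with an array left out. By the limit of 0.1 the numbers do not count as pairs in the AUF1 and IgG day 6 comparisons with day 0, or for AUF1 with IgG on days 2 and 4. Whether they pair arrays there is not settled. The block changed no other call count by more than 1.5 times. Day 6 AUF1 against IgG and the change of that difference stayed at 0 under every alternative run. Median scaling moved the median AUF1 minus IgG difference of probes detected on all 15 input arrays by -0.53, -1.20, -0.96 and -0.40 (log2) on days 0, 2, 4 and 6; the 94 then had 73, 60, 64 and 67 probes below 0, against 50, 58, 56 and 63. Where a count here lacks the share of all probes called under the same setting, its change is not read as particular to the 94. Signals near background limit every value of these probes.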
